A study of Homo sapiens with 4 samples.

Results

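Tight junctions were represented by 7 genes, the claudins CLDN1, CLDN2 and CLDN12, occludin (OCLN), tricellulin (MARVELD2), the junctional adhesion molecule JAM-A (F11R) and the scaffold ZO-1 (TJP1). They were taken by symbol from the 15037 genes of a count table, and all 7 were present and passed the filter on low counts. The table came from polyadenylated RNA of A549, an established line of lung carcinoma epithelial cells, grown in DMEM. There were 2 libraries of cells with a knockdown of PSME4 (PSME4 KD) and 2 of cells labelled RFP KD, used as the control (control KD). The series asked what changes in mRNA once A549 cells lack PSME4, a protein that caps the proteasome core. The labels name neither the knockdown reagent nor separate cultures, so p-values cover only library-to-library spread, possibly of technical origin.

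Tight junctions seal the space between neighbouring epithelial cells and set which ions and solutes pass along it. Claudins form the strands of the seal, and the set of claudins a cell makes decides whether the strands act as a barrier or as a channel. CLDN1 is a barrier-forming claudin, whose loss in mice makes the skin leak water. CLDN2 forms channels for small cations and water and is typical of leaky epithelia such as the kidney proximal tubule. CLDN12 is an atypical claudin that lacks the C-terminal motif by which most claudins bind ZO scaffolds.

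Depth was between 11766371 and 15208588 counts per library, with the control KD libraries the shallower ones. PSME4 itself stood at 75.3 and 85.1 CPM (counts scaled to a common library size by TMM) in PSME4 KD 1 and 2, and at 158 and 180 CPM in control KD 1 and 2. Its log2 fold change was −1.08 (SE 0.20, adjusted p = 0.000855 by edgeR; 0.0145 to 0.146 with 1 library left out, called in 1 of those 4 fits). The labelled cell type was in keeping with the keratins KRT18, KRT8 and KRT7 and the cadherin CDH1, all between 201 and 4120 CPM, while KRT19 and EPCAM lay between 1.71 and 7.88 CPM. The 6 epithelial markers summed to 5160 and 4010 CPM in PSME4 KD and to 4580 and 3700 CPM in control KD, and none passed the test. Of 8 fibroblast markers 4 were measured, at a sum of 29.8 to 33.5 CPM in PSME4 KD and 23.5 to 24.9 CPM in control KD. Among them COL1A1 rose by 0.73 and PDGFRA fell by 1.34 on the log2 scale (adjusted p = 0.0479 and 0.0453, edgeR). Neither passed after the correction for GC content (adjusted p = 0.16 and 0.0713, edgeR) or with 1 library left out. COL1A1 did not pass by DESeq2 or limma voom. DESeq2 gave PDGFRA no adjusted p, so it was not judged against the threshold there (unadjusted p = 0.0332, DESeq2). Of 8 immune markers 3 were measured, at 39.3 to 39.4 CPM and 29.1 to 33.8 CPM in the same groups, mostly from CD68. The 6 endothelial markers had no row in the count table under the symbols searched, so they were not analysed here. The part of these genes in the results below was not tested.

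Among the 7 genes 1 was raised, 1 was lowered and 5 missed the threshold, an adjusted p under 0.05 (edgeR quasi-likelihood test, Benjamini-Hochberg over 13497 genes). Over all tested genes 10.6% passed, 4.56% higher and 6.0% lower in PSME4 KD. The median log2 fold change, PSME4 KD over control KD, was −0.12 over the 7 genes and −0.0021 over all tested genes. Both genes that changed are claudins, and they moved in opposite directions by a like amount. Both had an absolute log2 fold change of at least 1, which 5.45% of tested genes reached. In a bulk sample, a change in each cell and a change in the share of cells that express a gene cannot be told apart.

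**Figure D1:**
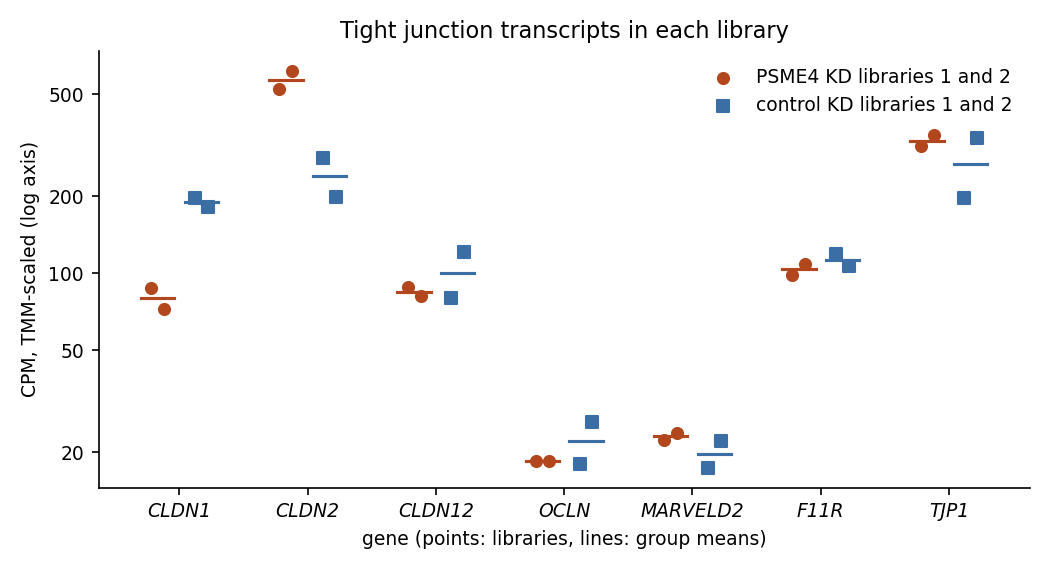
CPM (scaled by TMM, log axis) of the 7 genes in each library, PSME4 KD as circles and control KD as squares, with a horizontal line at each group mean of 2 libraries. CLDN1 lies at 72.4 and 87.6 CPM in PSME4 KD and at 182 and 197 CPM in control KD, CLDN2 lies the other way round, and the points of CLDN12, OCLN, F11R and TJP1 overlap between the groups.

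CLDN2 had 522 and 618 CPM in PSME4 KD 1 and 2, against 281 and 199 CPM in control KD 1 and 2. Both PSME4 KD libraries were above both control KD libraries, by more than either pair differed within itself. The mean was 570 ± 68.2 CPM in PSME4 KD and 240 ± 57.6 CPM in control KD (SD, n = 2 each), a 2.37-fold difference. This is a log2 fold change of 1.25 (SE 0.21, 95% interval 0.82 to 1.67; adjusted p = 0.0003, edgeR). It rested on 17357 counts in PSME4 KD and 5568 in control KD.

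CLDN1 had 87.6 and 72.4 CPM in PSME4 KD 1 and 2, against 197 and 182 CPM in control KD 1 and 2. Again the groups did not overlap, with both PSME4 KD libraries low. The mean was 80.0 ± 10.7 CPM in PSME4 KD and 189 ± 10.9 CPM in control KD (SD, n = 2 each). Its log2 fold change was −1.24 (SE 0.20, 95% interval −1.65 to −0.84; adjusted p = 0.000174, edgeR), from 2438 counts in PSME4 KD and 4392 in control KD. CLDN1 was thus 2.37-fold lower, the same factor by which CLDN2 was higher.

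Both claudins passed the test in each of 10 other fits on all 4 libraries, including a test against a log2 change of 0.58 in which only 115 genes passed. Each lost its call in 2 of the 4 fits with 1 library left out, where edgeR called between 43 and 281 genes in all. Without PSME4 KD 1 CLDN1 had −1.38 and without control KD 1 it had −1.18, with no call (adjusted p = 0.0639 and 0.0606, edgeR, over a range of 0.0213 to 0.0639 in the 4 fits). CLDN2 had 1.36 with PSME4 KD 1 left out and 1.03 with control KD 2 left out, again with no call (adjusted p = 0.0639 and 0.0764, edgeR, over a range of 0.00375 to 0.0764). The direction of both genes was the same in all of these fits. The authors' deposited table, which gives control KD over PSME4 KD, has log2 values of 1.23 for CLDN1 and −1.25 for CLDN2, with adjusted p-values of 4.03e-07 and 1.88e-06 by the authors' test. A further adjusted p in the authors' deposited table, by a method its header does not name, is 0.00439 for CLDN1 and 0.00861 for CLDN2.

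Because both genes are read in the same library, their ratio does not depend on how libraries are scaled. A bias by GC content need not cancel in it, as the CLDN1 transcript has 41.45% GC and that of CLDN2 52.6%. After the GC correction the log2 fold changes were −1.08 for CLDN1 and 1.11 for CLDN2. CLDN2 had 5.95 counts for each CLDN1 count in PSME4 KD 1 and 8.53 in PSME4 KD 2. In control KD 1 the ratio was 1.43, and in control KD 2 it was 1.10. The 95% Wilson intervals, which cover counting error only, ran from 5.62 to 6.31 and from 8.01 to 9.08 in PSME4 KD 1 and 2, and from 1.35 to 1.5 and from 1.04 to 1.16 in control KD 1 and 2. CLDN2 was the more counted of the pair in every library, narrowly in control KD and by a wide margin in PSME4 KD.

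The mean ratio was 7.24 ± 1.82 in PSME4 KD and 1.26 ± 0.231 in control KD (SD, n = 2 each). On the log2 scale the ratio was higher by 2.51 in PSME4 KD (SE 0.32), a 5.70-fold difference. Over the alternative settings on all 4 libraries this log2 difference ranged from 2.2 to 2.51. The closest PSME4 KD and control KD libraries differed 4.18-fold, while the libraries of a group differed 1.43-fold in PSME4 KD and 1.3-fold in control KD. An exact two-sided permutation test over the 4 libraries gave p = 0.333, the smallest value that 2 libraries against 2 allow. With counts divided by transcript length the ratio was 6.58 and 9.43 in PSME4 KD 1 and 2, and 1.57 and 1.21 in control KD 1 and 2, so the order of the pair was the same per length.

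**Figure D2:**
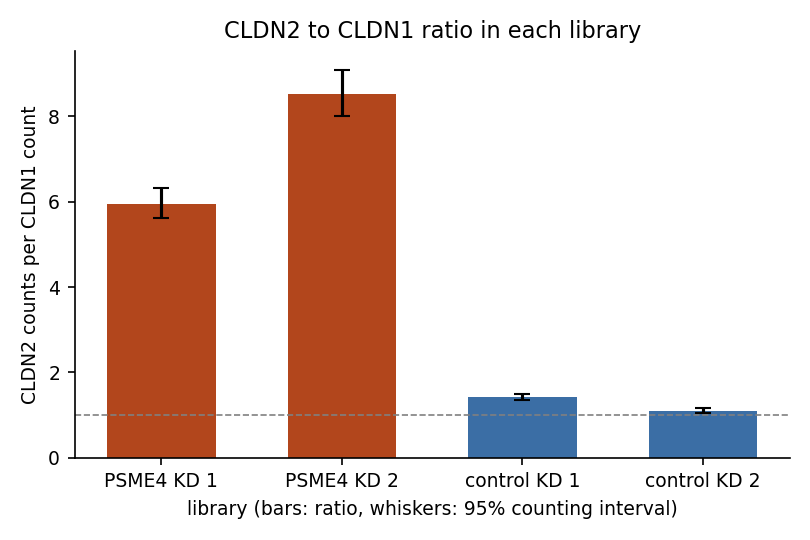
Raw CLDN2 counts per CLDN1 count in each library (bars, linear axis from 0) with 95% Wilson intervals as whiskers and a dashed line at 1. The PSME4 KD bars stand at 5.95 and 8.53 and the control KD bars at 1.43 and 1.10.

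The coding stretch that carries the signature of the claudin family, in the part that encodes the first extracellular loop, is shown for the 3 claudins because their reads must be told apart for the ratio to hold. The stretches are from GENCODE 29 transcripts on GRCh38, at chr3:190322015-190322119 on the minus strand for CLDN1, chrX:106928316-106928420 on the plus strand for CLDN2 and chr7:90412773-90412877 on the plus strand for CLDN12. Each lies within 1 exon and has 105 bases. Capitals mark the 22 positions where all 3 carry the same base when the stretches are compared without gaps.
CLDN1: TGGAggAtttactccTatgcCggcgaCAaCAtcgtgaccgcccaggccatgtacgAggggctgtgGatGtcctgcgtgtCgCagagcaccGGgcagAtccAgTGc
CLDN2: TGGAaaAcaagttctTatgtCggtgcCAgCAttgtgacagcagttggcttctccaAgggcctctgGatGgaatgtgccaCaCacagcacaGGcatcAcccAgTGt
CLDN12: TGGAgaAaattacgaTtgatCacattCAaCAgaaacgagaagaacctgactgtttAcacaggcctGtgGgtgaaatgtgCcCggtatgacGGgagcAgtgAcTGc
Position by position, CLDN1 and CLDN2 shared 64 of the 105 bases (61.0%), with no identical run longer than 6 bases. CLDN12 shared 31 with CLDN1 and 29 with CLDN2. No gap was allowed, and the middle codons of the signature lie later in CLDN12 than in CLDN1 and CLDN2. The counts with CLDN12, and the 22 capitals, can therefore understate how alike it is. Over all transcripts of CLDN1 and of CLDN2, 0% of the 31-base words occurred in a transcript of any other gene in GENCODE 29. Words were compared in the direction of the transcripts only, so matches to the opposite strand were not searched. The share was 14.9% for CLDN12, with the most matches in GTPBP10, so its reads are less certain.

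CLDN1 spans positions 190305707 to 190322446 of chromosome 3 and CLDN2 positions 106900164 to 106930861 of chromosome X in RefSeq on GRCh38.p14. The span of CLDN1 overlaps that of CLDN16, which had 37 counts in PSME4 KD and 46 in control KD, and the span of CLDN2 overlaps that of RIPPLY1, which had 3 counts in PSME4 KD and 9 in control KD. No source used here says whether the authors' counting used strand. These neighbours held far fewer counts than the claudins.

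The 250 bases before the RefSeq start sites of the 2 changed genes are shown because the promoters of the pair differ in composition. CLDN1 is on the minus strand at chr3:190322447-190322696 and CLDN2 on the plus strand at chrX:106899914-106900163 (RefSeq, GRCh38.p14), and capitals mark matches to the motifs named next.
CLDN1: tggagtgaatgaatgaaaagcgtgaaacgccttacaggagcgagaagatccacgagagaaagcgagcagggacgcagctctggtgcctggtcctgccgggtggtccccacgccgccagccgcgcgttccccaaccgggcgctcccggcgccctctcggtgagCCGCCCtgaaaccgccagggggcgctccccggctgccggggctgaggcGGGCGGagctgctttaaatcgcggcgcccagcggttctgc
CLDN2: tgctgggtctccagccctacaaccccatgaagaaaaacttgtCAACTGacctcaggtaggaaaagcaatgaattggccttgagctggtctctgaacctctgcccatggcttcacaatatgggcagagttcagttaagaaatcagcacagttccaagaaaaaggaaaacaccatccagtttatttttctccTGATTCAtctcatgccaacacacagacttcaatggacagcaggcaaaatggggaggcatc
The motifs searched on both strands were the GC box GGGCGG, the E-box CANNTG, the AP-1 site TGANTCA and the TATA box TATAAA. The CLDN1 window had 68.8% GC and 2 GC boxes with no match to the other motifs. The CLDN2 window had 46.0% GC, 1 E-box and 1 AP-1 site, and no match to the GC box or the TATA box. Among 35116 windows of the same length before RefSeq starts, the median GC content was 58.0%, and 42.6% held a GC box, 61.8% an E-box, 6.6% an AP-1 site and 10.7% a TATA box. A match is a description of letters, and the counts do not show which start site was used.

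The third claudin, CLDN12, had 88.3 and 81.3 CPM in PSME4 KD 1 and 2, against 80.2 and 121 CPM in control KD 1 and 2. The groups overlapped, with only control KD 2 high. The log2 fold change was −0.25 (SE 0.21, 95% interval −0.67 to 0.18) and did not pass (adjusted p = 0.480, edgeR). Leaving out control KD 1 gave −0.52, leaving out control KD 2 gave 0.09, and a correction for GC content gave 0.03, so its direction held in neither the fit lacking control KD 2 nor the GC-corrected fit. The CLDN12 transcript has 38.1% GC, the lowest of the 7 genes.

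Together the 9 claudins with a row summed to 706 and 781 CPM in PSME4 KD 1 and 2, against 576 and 514 CPM in control KD 1 and 2. The mean sum was 744 ± 53.1 CPM in PSME4 KD and 545 ± 43.9 CPM in control KD (SD, n = 2 each). Summed claudin CPM was thus 1.36-fold higher in PSME4 KD, while the make-up of the claudin counts shifted. CLDN2 made up 73.8% and 79.1% of claudin counts in PSME4 KD 1 and 2 (95% Wilson intervals 73.0% to 74.7% and 78.3% to 79.8%). In control KD 1 and 2 its share was 48.8% and 38.8% (47.6% to 50% and 37.6% to 40%).

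CLDN1 made up 12.4% and 9.27% of claudin counts in PSME4 KD 1 and 2 (11.8% to 13% and 8.76% to 9.81%), and 34.2% and 35.3% in control KD 1 and 2 (33.1% to 35.4% and 34.1% to 36.6%). CLDN12 took 12.5% and 10.4% in PSME4 KD 1 and 2, against 13.9% and 23.6% in control KD 1 and 2. CLDN1 was therefore the second most counted claudin in both control KD libraries, and stood below CLDN12 by a narrow margin in PSME4 KD.

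**Figure D3:**
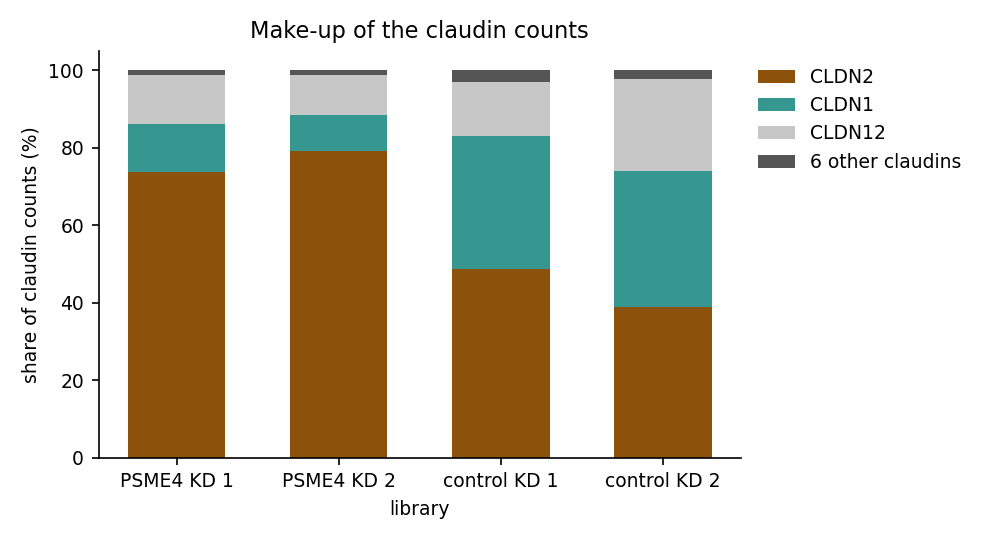
Share of all claudin counts (%, linear axis from 0) in each library, stacked by gene, with 6 further claudins as 1 block. The CLDN2 block takes 73.8% and 79.1% in PSME4 KD and 48.8% and 38.8% in control KD, and the CLDN1 block narrows to 12.4% and 9.27% in PSME4 KD, against 34.2% and 35.3% in control KD.

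Of the 6 further claudins, 3 could be tested. CLDN23 fell, with 4.53 and 4.33 CPM in PSME4 KD 1 and 2, against 12.8 and 7.22 CPM in control KD 1 and 2. Its log2 fold change was −1.17 (SE 0.31, adjusted p = 0.0143, edgeR), and −0.71 without control KD 1, and it was called in none of the 4 fits with 1 library left out. In the test against a log2 change of 0.58 CLDN23 did not pass (adjusted p = 0.274, edgeR). The authors' deposited adjusted p for CLDN23 is 0.0359 by the authors' test, and the further adjusted p is 0.462. CLDN15, a claudin that forms cation channels in the gut, had 1.58 and 2.89 CPM in PSME4 KD and 1.38 and 1.20 CPM in control KD (log2 0.78, SE 0.44; 1.15 with PSME4 KD 1 left out and 0.31 with PSME4 KD 2 left out). CLDN16, a claudin of magnesium handling in the kidney, had 1.25 and 1.18 CPM in PSME4 KD and 1.9 and 2.06 CPM in control KD (log2 −0.70, SE 0.43), and neither passed. CLDN3, CLDN4 and CLDN7, common in other epithelia, had 11 counts or fewer in each library and were not tested. The other 15 claudins on the list had no row in the count table under the symbols searched, so they were not analysed here.

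OCLN and MARVELD2 belong to the MARVEL family of tight junction proteins. Occludin lies along the whole junction, and tricellulin gathers at tricellular contacts. OCLN had 18.5 and 18.5 CPM in PSME4 KD 1 and 2, against 18.1 and 26.3 CPM in control KD 1 and 2. Only control KD 2 was high, and the groups overlapped. The log2 fold change was −0.26 (SE 0.23, 95% interval −0.74 to 0.22), with no call (adjusted p = 0.505, edgeR), and it was 0.04 without control KD 2 and −0.03 after the GC correction.

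MARVELD2 had 22.3 and 23.9 CPM in PSME4 KD 1 and 2, against 17.4 and 22.2 CPM in control KD 1 and 2. The groups did not overlap, but the gap between PSME4 KD 1 and control KD 2 was smaller than the spread within control KD. The log2 fold change was 0.23 (SE 0.23, 95% interval −0.24 to 0.69) and did not pass (adjusted p = 0.566, edgeR). In all, 3 of the 7 genes had groups that did not overlap, beside 55.0% of all tested genes. OCLN and MARVELD2 are neighbours on chromosome 5, at positions 69492547 to 69558104 and 69415116 to 69444330 of GRCh38.p14, with 48.2 kb between them. Of the 31-base words of OCLN transcripts 13.1% occurred in other genes, with the most matches in the pseudogene OCLNP1, so its counts are uncertain to that extent.

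F11R encodes JAM-A, an immunoglobulin-like adhesion molecule that helps place polarity proteins at the junction. It had 98.3 and 109 CPM in PSME4 KD 1 and 2, against 119 and 107 CPM in control KD 1 and 2. The groups overlapped and all 4 libraries lay close together. Its log2 fold change was −0.12 (SE 0.19), and the 95% interval of −0.52 to 0.27 was the narrowest of the 7 (adjusted p = 0.731, edgeR). F11R lies at positions 160995211 to 161021152 of chromosome 1, and 40.4% of its 31-base words occurred in other genes, most of all in AL591806.3. That share was the largest of the 7 genes, so the F11R counts are uncertain to that extent despite the narrow interval.

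TJP1 encodes ZO-1, the scaffold that ties claudins, occludin and JAM-A to the actin cytoskeleton. It had 313 and 346 CPM in PSME4 KD 1 and 2, against 196 and 338 CPM in control KD 1 and 2. Only control KD 1 was low, and control KD 2 lay between the PSME4 KD libraries. The log2 fold change was 0.30 (SE 0.22, 95% interval −0.14 to 0.75), which did not pass (adjusted p = 0.390, edgeR). It was −0.04 without control KD 1 and 0.75 without control KD 2, where the adjusted p was 0.0962 (range 0.0962 to 0.923 with 1 library left out, edgeR). Within control KD, library 2 was 1.72-fold above library 1 for TJP1, the widest gap inside a group among the 7 genes. CLDN12 and TJP1, at positions 90403461 to 90415954 of chromosome 7 and 29699367 to 29969049 of chromosome 15, shared this pattern with OCLN, as control KD 2 exceeded control KD 1 by 0.60, 0.78 and 0.54 on the log2 scale.

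**Figure D4:**
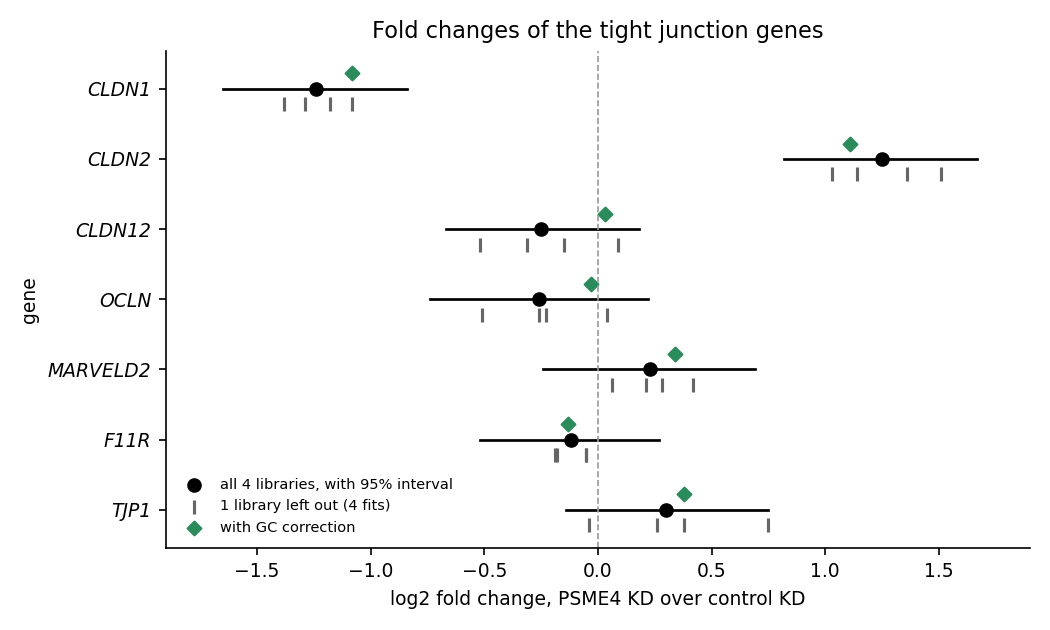
Log2 fold change, PSME4 KD over control KD, of the 7 genes with all 4 libraries (black, with 95% interval), with each library left out (grey ticks) and after the GC correction (green). CLDN1 and CLDN2 stay on their sides of 0 at −1.24 and 1.25, while the values of CLDN12, OCLN and TJP1 with 1 library left out reach across 0.

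Levels of different genes were compared as CPM per kb of the longest GENCODE 29 transcript. In PSME4 KD the order of mean levels was CLDN2 at 181 ± 21.6 CPM per kb, TJP1 at 41.5 ± 2.97, CLDN12 at 23.8 ± 1.4, CLDN1 at 23.0 ± 3.08, F11R at 21.5 ± 1.62, MARVELD2 at 5.29 ± 0.261 and OCLN at 2.87 ± 0.00516 (SD, n = 2). CLDN1 could not be separated from CLDN12 or from F11R there, since their libraries overlapped. In control KD the order was CLDN2 at 76.3 ± 18.3 CPM per kb, CLDN1 at 54.4 ± 3.15, TJP1 at 33.6 ± 12.6, CLDN12 at 28.2 ± 8.12, F11R at 23.4 ± 1.74, MARVELD2 at 4.52 ± 0.775 and OCLN at 3.45 ± 0.904 (SD, n = 2). There the libraries of TJP1 and CLDN12, of CLDN12 and F11R, and of MARVELD2 and OCLN overlapped. CLDN1 thus stood second in control KD and within a group of 3 like levels in PSME4 KD.

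Further junction genes were read by list, each beside the 10.6% of all tested genes that passed. With so few genes in a list, nothing particular to it is read from a count of 0. Of 10 further transmembrane junction proteins 4 were tested and 0 passed by edgeR, DESeq2 or limma voom, with 0 at an unadjusted p under 0.05 by edgeR. JAM3, another junctional adhesion molecule, had a log2 fold change of −0.53 (SE 0.27), and BVES had −0.23 (SE 0.21). Of 20 further scaffold and plaque proteins 19 were tested and 0 passed by edgeR, DESeq2 or limma voom, with 1 at an unadjusted p under 0.05 by edgeR, and their median log2 fold change was 0.06. That 1 gene was PARD3, a polarity scaffold that binds JAM-A, with 248 and 287 CPM in PSME4 KD and 162 and 202 CPM in control KD (log2 0.56, SE 0.20, adjusted p = 0.0654 by edgeR). It passed with scaling by library size alone (adjusted p = 0.037, edgeR) and among genes with at least 50 counts in 2 libraries (0.0454), and was at 0.103 to 0.493 with 1 library left out. TJAP1, with the next smallest p, had a log2 fold change of 0.63 (SE 0.34), which was 1.15 with control KD 1 left out and 0.25 with control KD 2 left out.

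Among 19 tested genes of junction signalling and trafficking, 1 rose and 1 fell, a share of 10.5% beside 10.6% of all genes. ARHGEF11, a guanine nucleotide exchange factor that binds ZO-1, rose by 0.73 (SE 0.22), and RAB5A, a GTPase of early endosomes, fell by 0.61 (SE 0.19), both on the log2 scale (adjusted p = 0.0323 and 0.0399, edgeR). After the GC correction neither passed (0.57 and −0.46), nor did either in any of the 4 fits with 1 library left out.

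Of 20 tested transcription factors known to act on claudin genes or epithelial junctions, 3 rose and 2 fell, or 25.0% beside 10.6% of all genes, and 4 passed by DESeq2. The balance was 2 higher and 4 lower after the GC correction, 4 and 4 with the replicate number as a block, and 3 and 5 with both. Over all genes 1258, 1554 and 1638 passed in these fits and 1101 by DESeq2, beside 1426 in the main fit. The list was written with earlier results of these data known, so its share is a description and no test. On the log2 scale ELF3, an epithelial ETS factor, rose by 0.84 (SE 0.20) and HNF4A, a nuclear receptor of endodermal epithelia, by 0.93 (SE 0.22). JUN, a subunit of AP-1, fell by 1.41 (SE 0.26), with 25.2 and 11.6 CPM in PSME4 KD and 43.8 and 54.1 CPM in control KD. TWIST1, which represses epithelial genes, fell by 1.27 (SE 0.38) at 1.45 and 1.44 CPM in PSME4 KD and 3.55 and 3.44 CPM in control KD. DESeq2 gave TWIST1 no adjusted p, so it was not judged against the threshold there (unadjusted p = 0.0173, DESeq2). The adjusted p-values of these 4 genes were between 0.000927 and 0.0319 by edgeR. With 1 library left out, ELF3 kept its call only without PSME4 KD 2 (1.02), JUN only without PSME4 KD 1 (−2.07, beside −0.93 when PSME4 KD 2 was the one left out), and HNF4A and TWIST1 in none of the 4 fits.

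**Figure D5:**
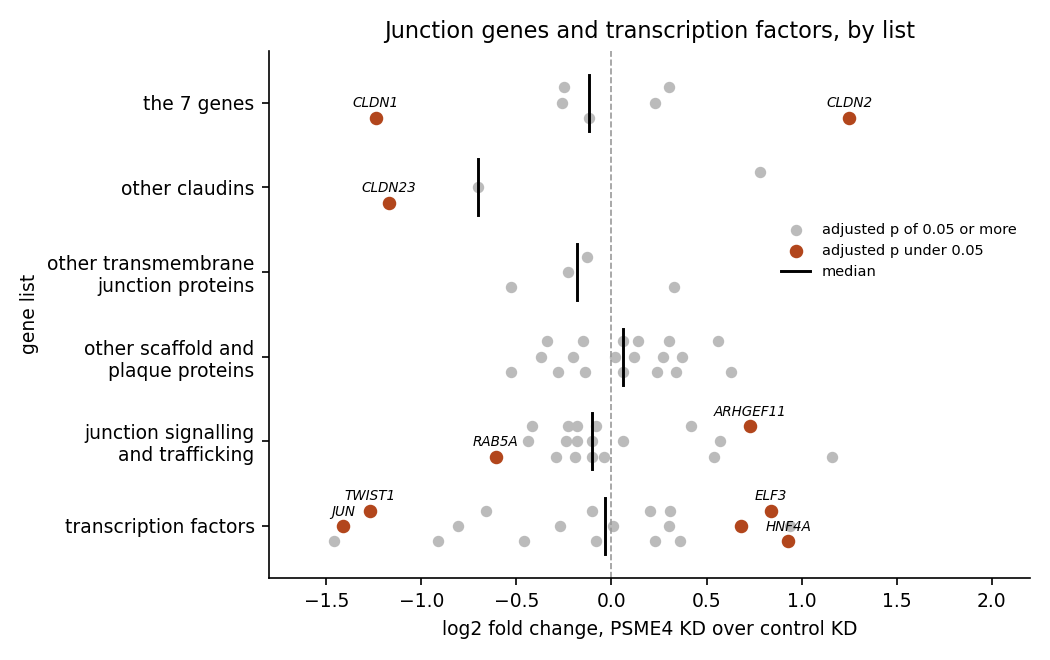
Log2 fold change, PSME4 KD over control KD, of each tested gene (points) in the 7 genes and 5 further lists, with the list's median as a black bar and genes at an adjusted p under 0.05 as larger red-brown points, named where the text gives their values. CLDN1 and CLDN2 lie far out on either side, and the 19 scaffold and plaque proteins spread around a median of 0.06 with none in red-brown.

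The transcripts nearest to each changed claudin were found by Euclidean distance between log2 CPM profiles over the 4 libraries, each centred on its mean, among 10313 genes averaging 5 CPM or more. For CLDN1 they were NAP1L2 at a distance of 0.0877, the cyclin CCND1 at 0.107 and the ubiquitin-conjugating enzyme UBE2W at 0.114. CCND1 had 58.8 and 52.6 CPM in PSME4 KD and 139 and 120 CPM in control KD. For CLDN2 they were the small GTPase RHOG at 0.110, ANKRD9 at 0.138 and the inositol phosphate kinase ITPK1 at 0.154. RHOG had 41.9 and 50.6 CPM in PSME4 KD and 23.1 and 17.7 CPM in control KD. These genes were chosen by the likeness itself, so it is a description over 4 libraries and no test.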

How the data were processed

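Polyadenylated RNA of 4 A549 libraries, 2 PSME4 KD and 2 control KD, was sequenced after library preparation by a Lexogen SENSE kit, per the labels' protocols. The submitters' processing notes name the tools STAR, cutadapt and DESeq2 and the build hg38, without versions. How reads were counted, with which annotation and strand setting, was not stated in these sources. The deposited table held raw counts per gene, which were analysed here. It also held deposited signal values (counts over 1 size factor per library), deposited log2 values (a regularised log, per the file headers), and the authors' own log2 fold change, p-value and adjusted p-value. The largest count in each row was at least 6, so the table held no gene with fewer counts in every library.

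Counts were tested in R 4.3.3 with edgeR 4.0.16 (filterByExpr, 13497 of 15037 genes kept; TMM; glmQLFit and glmQLFTest; group as the only term; 2 residual degrees of freedom; Benjamini-Hochberg threshold 0.05). SE is the log2 fold change over the square root of F, and 95% intervals use the t distribution of the fit. The biological coefficient of variation was 15.3%. Each library counted as 1 replicate. Replicates differed beyond counting noise (chi-square per degree of freedom 19.1 in PSME4 KD and 23.9 in control KD), which does not show that they were separate cultures. Alternatives were DESeq2's size factors, library size alone, DESeq2 1.42.0, limma 3.58.1 voom, no count filter, at least 50 counts in 2 libraries, a replicate block, a lowess correction for GC content (span 0.4, prior count 2, 97.3% of tested genes covered), that correction with the block, a threshold of 0.10, a test against a log2 change of 0.58 and each library left out. The steps were tested on simulated data. Sequences and positions are from RefSeq on GRCh38.p14 and GENCODE 29, the assembly of hg38, and all 7 genes matched by symbol. No promoter is printed for unchanged genes.

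The 7 genes and the lists were chosen with earlier results of these data known. Named are the 7 genes, PSME4, further claudins, members of each list past the threshold or else the 2 with the smallest p, and the 3 genes nearest to CLDN1 and to CLDN2. The values of 1 transcription factor past the threshold are not reported here.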

Additional observations from a re-analysis of the deposited data

How the results depend on the processing

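Groups and replicate numbers come from the sample titles. Over settings that used all 4 libraries, the number of genes changed was 1426 and moved beyond 1.5 times only at a threshold of 0.10 (2240) and in the test against a log2 change of 0.58 (115). CLDN1 and CLDN2 kept their call and direction in all of these settings, and the only reversals among the 7 genes were in CLDN12, at 0.03 with the GC correction and 0.04 with the GC correction and the replicate block, neither past the threshold. Leaving out 1 library gave 43 to 281 genes. In these 4 fits CLDN1 ranged from −1.38 to −1.08, CLDN2 from 1.03 to 1.51, CLDN12 from −0.52 to 0.09, OCLN from −0.51 to 0.04, TJP1 from −0.04 to 0.75, MARVELD2 from 0.06 to 0.42 and F11R from −0.19 to −0.05. The log2 difference in the ratio of CLDN2 to CLDN1 was 2.25 to 2.77. No replicate pairing is given in the labels, and the deviations of same-numbered libraries had a correlation of −0.043 over 8748 genes. With the replicate number as a block 1554 genes passed, CLDN1 was at −1.25, CLDN2 at 1.26 and the ratio difference at 2.51. A left-out library leaves a lone library in its group, which is assumed to vary like the other group. Genes under about 10 CPM, such as CLDN23, rest on few counts. The causes of these shifts were not tested.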
